A study of Homo sapiens with 30 samples.

Results

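Cytosol RNA was compared between WDM cells given tetracycline and WDM cells left untreated, 3 libraries against 3, chosen by their sample titles from the 30 libraries of the series. The cells are derivatives of HEK293, an established human embryonic kidney line, of the Flp-In T-REx kind, in which tetracycline switches on a transgene placed at a single docking site. The WDM line carries GFP fused to TIA1a with the mutation of Welander distal myopathy (genotype WDM), and a companion line carries the same fusion with the normal protein (genotype WT). The compared groups, WDM untreated and WDM with tetracycline, share the transgene and differ in the labels by tetracycline alone; its dose and duration are not given there. WT libraries with and without tetracycline (3 each), and WDM libraries given tetracycline followed by 0.5 mM sodium arsenite for 60 min (3), are quoted beside them, and all 18 cytosol libraries were fitted together. Each genotype is represented by a single line, no tetracycline-treated line without a transgene is included, and nothing in the labels says whether replicates were separate cultures, so p-values measure the spread between these samples. The effect of tetracycline, the effect of the induced protein and other differences between the cultures used for the groups cannot be told apart in this design.

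TIA1 and its paralog TIAL1 are RNA-binding proteins that attach to U-rich and AU-rich stretches of pre-mRNA and mRNA, where they influence splicing, translation and decay, and TIA1 helps to build stress granules when translation is blocked. The Welander mutation lies in the prion-like tail of TIA1 that drives granule assembly, and it causes a late-onset disease of the distal muscles. Tetracyclines also bind the mitochondrial ribosome, which descends from a bacterial ribosome, so mitochondrial genes were looked at separately.

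The 3 untreated WDM libraries held 11433211 to 14339211 counts and the 3 tetracycline libraries 7971585, 10815398 and 18884843 counts, so replicate 1 of the tetracycline group was the shallowest of the 6. Replicates of the tetracycline group differed more from each other (chi-square per degree of freedom 6.99 to 15.8) than the untreated ones (1.65 to 2.05), and no pair looked like a repeated library. Across tested genes, the rank correlation of a library's deviation with transcript length was 0.25, -0.24 and 0.14 in tetracycline replicates 1 to 3 and -0.10 to -0.02 in untreated ones. Of the epithelial markers 6 of 7 were measurable, with summed levels of 352 to 364 CPM (counts scaled to a common library total) in untreated and 380.4 to 471 CPM in tetracycline libraries, and of the embryonic kidney markers 6 of 8 (65.4 to 70.4 and 61.4 to 82.2). Neural markers, 4 of 8 measurable, summed to 257 to 263 and 208 to 225 CPM, and fibroblast markers, 4 of 8, to 11.0 to 11.6 and 15.7 to 20.1. Immune markers, 2 of 8, summed to 64.8 to 66.5 and 50.2 to 76.3 CPM. None of 6 endothelial markers passed the filter on low counts, and the erythroid genes HBB, HBG1, HBG2 and ALAS2 and the immune genes CD3E and TYROBP had no count in any of the 6 libraries. The epithelial, neural and fibroblast sums did not overlap between the groups, and their part in the results was not tested. Single neural markers went both ways, with log2 fold changes from -0.43 to 0.42. In such bulk samples fewer cells of a type and less RNA per cell cannot be told apart.

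Induction of the transgene could not be followed in these counts. TIA1 (chromosome 2, 70209444 to 70248660, GRCh38) had 1 count in 1 untreated library and 0 in the other 5 libraries, under the floor of 3 counts that a count of 0 allows. Its span lies almost wholly within that of C2orf42 (70149885 to 70248615) on the same strand, which had 81 to 231 counts, and how reads over overlapping genes were counted is not given in the sources used here. The near-zero value therefore says nothing of TIA1's level. The endogenous paralog was measured well. TIAL1 (ENSG00000151923, chromosome 10, 119571802 to 119597029) had 66.8, 69.8 and 70.1 CPM (here and below with library totals scaled by TMM factors) in the untreated libraries and 46.8, 32.3 and 43.4 CPM with tetracycline. Every tetracycline library lay below every untreated one, a log2 fold change of -0.76 (SE 0.141, edgeR quasi-likelihood test, Benjamini-Hochberg adjusted p 0.00337), and it fell in WT by log2 0.82. With arsenite added, TIAL1 stood at 81.9, 68.9 and 60.5 CPM, around its untreated level.

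Of all 16670 genes tested, 1050 (6.30%) differed between tetracycline and untreated WDM cytosol at an edgeR adjusted p under 0.05. With tetracycline 511 were higher (3.07%) and 539 lower (3.23%). Without the 426 tested genes of chromosome 20 the count was 994 of 16244 (6.12%), 509 higher and 485 lower, so 56 of the calls lay on that chromosome. Most changes were small: 59 rises and 78 falls reached a log2 fold change of 1, of which 59 and 71 lay outside chromosome 20. In 29.6% of all tested genes the 3 tetracycline libraries did not overlap the 3 untreated ones, and this was so for 1045 of the 1050 called genes. Calls differed by kind of gene. Protein-coding genes held 472 rises and 418 falls among 13068 tested, whereas long noncoding RNAs held 32 rises and 95 falls among 2575, with a median log2 fold change of -0.13 against 0.02 for protein-coding genes. What part nuclear RNA in the cytosol fraction had in this difference was not tested. Reduced fits, each without 1 of the 6 compared libraries, called between 422 (without untreated replicate 2) and 771 genes (without tetracycline replicate 2). The full fit and all 6 reduced fits shared 297 called genes, 135 higher and 162 lower.

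Outside chromosome 20 the falls were led by IFI16, a cytosolic and nuclear DNA sensor of innate immunity (ENSG00000163565, chromosome 1, 158999968 to 159055155). It had 11.6, 12.5 and 14.3 CPM in untreated cells and 1.16, 1.92 and 2.57 CPM with tetracycline, a log2 fold change of -2.65 (SE 0.238, edgeR adjusted p 2.9e-06). The groups were far apart, and the arsenite libraries, at 2.01, 2.63 and 3.39 CPM, stayed at the low level. In WT cells IFI16 was near absence with and without tetracycline (means 0.108 and 0.309 CPM), so no WT fold is given. NALT1, a long noncoding RNA, fell from 4.51, 6.57 and 5.68 CPM to 0.387, 1.92 and 1.31 CPM (log2 -2.12, SE 0.299, edgeR adjusted p 0.000433). Its value in tetracycline replicate 1, the shallowest library, rested on 3 counts, which is the floor.

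The next falls were in genes of various roles. LRRC7, a scaffold of the postsynaptic density (chromosome 1, 69567922 to 70151945), fell from 5.62, 6.79 and 5.15 CPM to 2.32, 1.05 and 1.31 CPM (log2 -1.99, SE 0.272, edgeR adjusted p 0.000315). GRIK3, a kainate-type glutamate receptor subunit, had 16.2, 15.3 and 15.6 CPM untreated and 8.12, 5.46 and 4.03 CPM with tetracycline (log2 -1.49, SE 0.237, edgeR adjusted p 0.00142). PCDH17, a protocadherin adhesion molecule, went from 19.9 to 22.7 CPM down to 5.93, 4.50 and 11.5 CPM, replicate 3 being the highest of the treated libraries. ADGRB3, an adhesion G-protein-coupled receptor of synapses, showed the same order among its treated libraries, at 14.3, 7.67 and 27.8 CPM against 39.9 to 47.7 CPM. Its call (log2 -1.35, edgeR adjusted p 0.025) was absent from 5 of the 6 reduced fits, all but that without tetracycline replicate 3, and from a fit of the 6 libraries alone (adjusted p 0.0814). NIM1K, a protein kinase, NELL1, a secreted growth-promoting glycoprotein, the antisense RNA SNTG2-AS1 and N4BP2L1 completed the set, with log2 fold changes of -1.44, -1.43, -1.36 and -1.34. In these 4 genes the treated libraries held 1.42 to 3.22 CPM and the untreated ones 4.88 to 7.45 CPM. All 12 leading genes outside chromosome 20 that fell also lay below the untreated range in the 3 arsenite libraries. The same untreated libraries served to choose these genes, so this is not separate support, and the share over all genes was not counted. In every reduced fit 11 of the 12 were called.

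**Figure D1:**
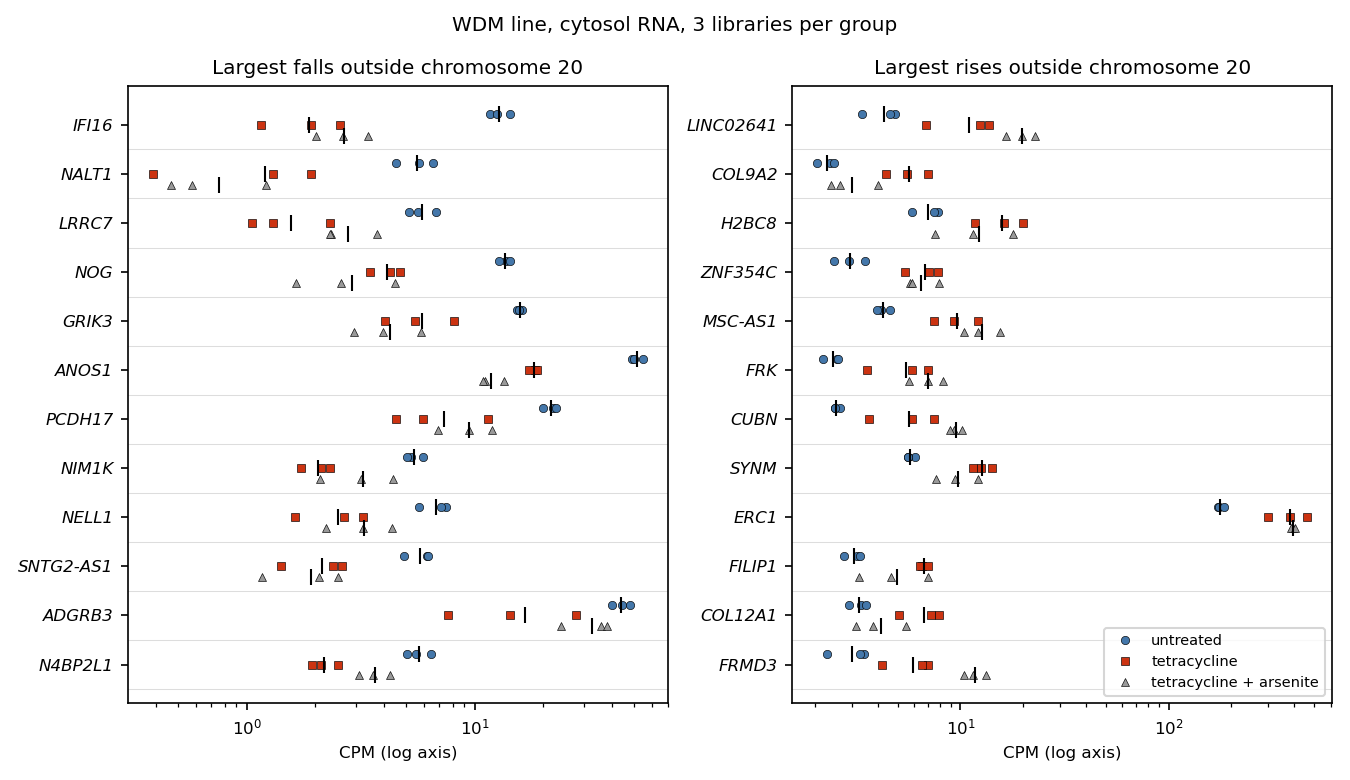
CPM (log axis) in each WDM cytosol library for the 12 largest falls (left) and the 12 largest rises (right) outside chromosome 20 among called genes with a symbol, a mean of at least 5 CPM and no overlap between groups. Circles are untreated, squares tetracycline, triangles tetracycline with arsenite, and vertical bars are means of 3 libraries; IFI16 drops from 12.8 to 1.88 CPM, and the treated squares lie to one side of the circles in every gene.

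The leading rises were smaller in fold and mostly in genes of low level. LINC02641, a long noncoding RNA, rose from 4.85, 4.60 and 3.37 CPM to 12.4, 6.80 and 13.7 CPM (log2 1.36, SE 0.284, edgeR adjusted p 0.00852), and was no longer called without tetracycline replicate 3. COL9A2, a chain of the cartilage collagen IX, rose from 2.36, 2.48 and 2.04 CPM to 4.38, 7.00 and 5.55 CPM (log2 1.30, SE 0.221, edgeR adjusted p 0.0019). In the arsenite libraries COL9A2 was back at 2.38 to 4.02 CPM, whereas LINC02641 stood higher still, at 16.6 to 22.9 CPM.

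ERC1, a scaffold of vesicle docking and of NF-kappaB signalling (ENSG00000082805, chromosome 12, 990509 to 1495933), was the most abundant of the 12 leading rises. It had 172.9, 174.6 and 184.1 CPM in untreated cells and 465.0, 299.7 and 384.8 CPM with tetracycline (log2 1.11, SE 0.127, edgeR adjusted p 6.77e-05). The treated libraries all exceeded the untreated ones by more than 100 CPM. SYNM, an intermediate filament protein of muscle, rose from 5.59 to 6.03 CPM up to 11.5 to 14.2 CPM (log2 1.13), and FILIP1, a regulator of filamin, from 2.75 to 3.29 CPM up to 6.39 to 7.00 CPM (log2 1.10). CUBN, the endocytic receptor cubilin of kidney tubules, the kinase FRK, the zinc-finger gene ZNF354C, the antisense RNA MSC-AS1, the collagen gene COL12A1, FRMD3 and the histone gene H2BC8 rose by log2 0.99 to 1.18. Of the 12 leading rises 6 went uncalled in at least 1 reduced fit, H2BC8 and MSC-AS1 in 5 of the 6. For SYNM and FILIP1, 27.8% and 38.4% of the exon length lies opposite another gene, and how counting treated strand is not given in the sources used here.

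The WT line was set beside these values, since its tetracycline and untreated libraries are not those of the WDM comparison. Between tetracycline and untreated libraries 886 genes differed there (5.31%), with 488 rises (2.93%) and 398 falls (2.39%). Of the genes called in WDM outside chromosome 20 and outside the stretches of chromosomes 2 and 13 described further down, the WT log2 fold change had the same sign for 454 of 478 rises (95.0%) and 389 of 404 falls (96.3%), against 73.7% of all 15682 genes tested there. Their median log2 fold changes were 0.46 in WDM and 0.34 in WT for the rises, and -0.56 and -0.38 for the falls. ERC1 rose in WT too, by log2 1.02 (edgeR adjusted p 0.000382), and NOG, NALT1, NIM1K, SNTG2-AS1 and N4BP2L1 fell there by log2 1.17 to 1.75 and were called. These were 1 of the 12 leading rises and 5 of the 12 leading falls outside chromosome 20. The WT sign was the same for 10 and 9 of them, with IFI16 near absence in WT. It was opposite for COL9A2 (-0.26), SYNM (-0.15), PCDH17 (0.74), ADGRB3 (0.60) and ANOS1 (0.08), none of them called in WT. PCDH17 and ADGRB3 were low in WT, with means from 0.718 to 2.07 CPM.

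Whether a gene's change differed between the lines was tested as an interaction, which called 3 of 16670 genes (0.0180%), 2 with a higher change in WDM (0.0120%) and 1 with a lower one (0.00600%), while 749 had an unadjusted p under 0.05. ANOS1 encodes anosmin-1, an extracellular matrix protein that modulates FGF receptor signalling (ENSG00000011201, chromosome X, 8528874 to 8732137). In WDM it had 48.8, 49.9 and 54.8 CPM untreated and 18.4, 17.3 and 18.7 CPM with tetracycline, a log2 fold change of -1.49 (SE 0.1, edgeR adjusted p 2.93e-08). In WT it had 119.1, 111.3 and 96.1 CPM untreated and 122.4, 106.3 and 115.7 CPM with tetracycline, so the WT groups overlapped and the WDM groups did not. The interaction was -1.57 (SE 0.135, edgeR adjusted p 2.69e-06), and it passed in each of 12 reduced fits, 1 for each library of either line. The arsenite libraries of WDM were lower again, at 13.5, 11.1 and 10.9 CPM.

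APOLD1, an endothelial early-response gene, rose in WDM and fell in WT. It had 57.4 to 61.1 CPM untreated and 72.8 to 76.4 CPM with tetracycline in WDM (log2 0.34, edgeR adjusted p 0.035), and 29.6 to 36.0 CPM untreated and 21.4 to 23.0 CPM with tetracycline in WT (log2 -0.56, edgeR adjusted p 0.00513). SSPN, sarcospan of the muscle dystrophin complex, had 4.78, 5.48 and 6.30 CPM untreated and 7.99, 8.63 and 7.64 CPM with tetracycline in WDM, a change that did not pass the test (edgeR adjusted p 0.0604), and fell in WT from 2.51 to 3.04 CPM to 0.894 to 1.59 CPM. The interactions were 0.91 (edgeR adjusted p 0.0209) for APOLD1 and 1.82 (edgeR adjusted p 0.0495) for SSPN, called in 6 and 1 of the 12 reduced fits. The WDM change of APOLD1 alone went uncalled in all 6 of its reduced fits, and 25.6% of its exon length overlaps another gene on the same strand. LRRC7 and COL9A2 had the next smallest p among genes of at least 5 CPM, with interactions of -1.88 and 1.56 that were not called (edgeR adjusted p 0.105 and 0.11).

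**Figure D2:**
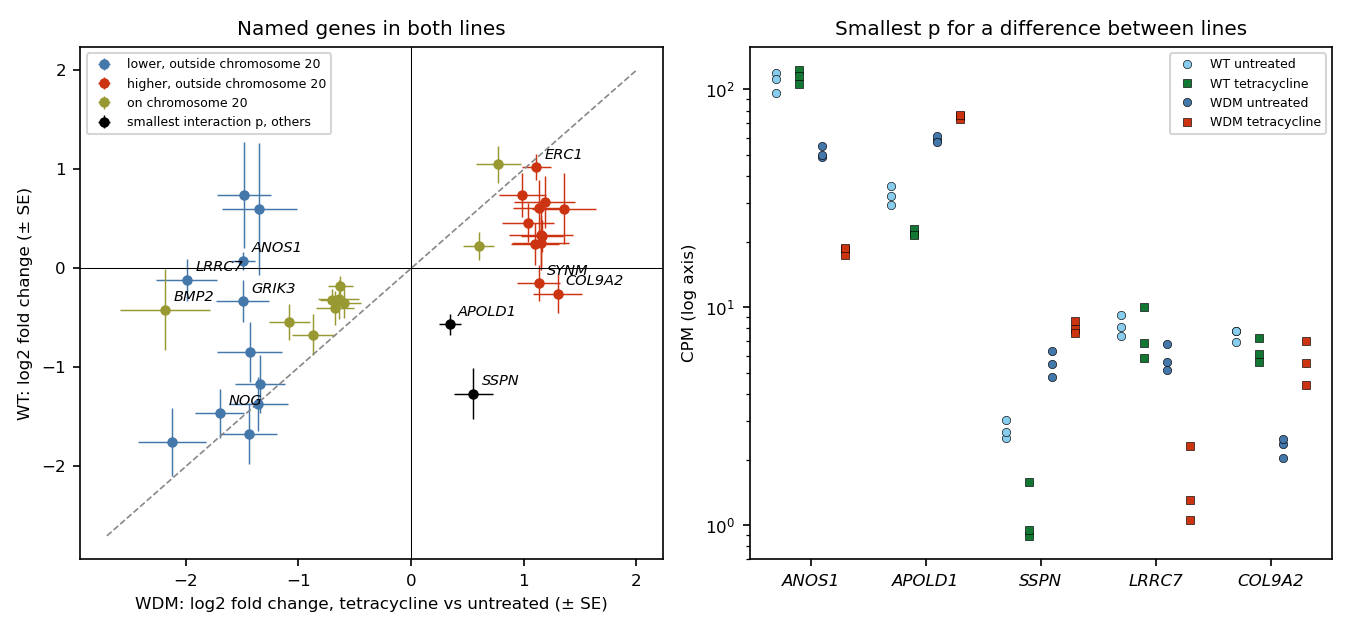
Left, log2 fold change with tetracycline in WDM (x axis) and WT (y axis) with standard errors, where the dashed line marks equal change. Genes drawn are the leading ones outside and on chromosome 20 and the 5 with the smallest interaction p. Each has a WT mean of at least 1 CPM in either group. Right, CPM (log axis) in each library of both lines for the 5 genes with the smallest interaction p; ANOS1 falls to 17.3 to 18.7 CPM in WDM and stays at 106.3 to 122.4 CPM in WT.

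ANOS1 belongs to a list of FGF ligands, receptors, feedback inhibitors and targets, of which 21 of 24 genes were tested. In WDM 5 rose and 3 fell (38.1% called, beside 6.30% of all genes), with a median log2 fold change of 0.08 against 0.00 over all genes tested. The 3 falls include ANOS1, already chosen for its own change. In WT 9 rose and 0 fell (42.9% called, beside 5.31%; median 0.22). The 5 rises became 3 with scaling by library size only, without the low-count filter and with only the groups compared. The transcription factor ETV5, a target of FGF-ERK signalling, rose from 19.1, 19.8 and 23.6 CPM to 34.5, 34.1 and 38.4 CPM (log2 0.78, edgeR adjusted p 0.000959), and the heparan sulfate sulfotransferase HS6ST2 from 87.4 to 90.6 CPM up to 124 to 146 CPM (log2 0.61). The inhibitor SPRED1 (0.40), the ligand FGF2 (0.36) and the receptor FGFR1 (0.27) also rose. The ligand FGF9 and the receptor FGFR3 fell by 0.36 and 0.37 on the log2 scale, with WT values of 0.08 and -0.01, and their interactions did not pass the test.

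BMP signalling was described by role because its ligand BMP2 and its antagonist NOG were among the genes that fell most. BMPs are secreted ligands that bind receptor kinases, which activate SMAD1, SMAD5 and SMAD9. These enter the nucleus with SMAD4 and raise target genes such as the ID genes and the inhibitor SMAD6, while noggin (NOG) and chordin-like 1 (CHRDL1) trap the ligands outside the cell. The 250 bases before the RefSeq start of 3 genes at successive steps of the pathway that fell, the transducer SMAD9, the inhibitor SMAD6 and the target ID2, are shown from RefSeq (GRCh38.p14), 5′ to 3′ on the gene's strand. Capitals mark matches to the SMAD binding element GTCTAGAC, searched with the GC-rich SMAD palindrome GGCGCC; each reads the same on both strands and neither overlaps the other.
SMAD9 (chr13:36920239-36920488, minus strand): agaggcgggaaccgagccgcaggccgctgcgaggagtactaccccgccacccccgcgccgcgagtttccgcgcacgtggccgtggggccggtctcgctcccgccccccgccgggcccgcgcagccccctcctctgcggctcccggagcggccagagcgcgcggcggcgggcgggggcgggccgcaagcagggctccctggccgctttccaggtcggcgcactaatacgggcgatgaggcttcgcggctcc
SMAD6 (chr15:66701986-66702235, plus strand): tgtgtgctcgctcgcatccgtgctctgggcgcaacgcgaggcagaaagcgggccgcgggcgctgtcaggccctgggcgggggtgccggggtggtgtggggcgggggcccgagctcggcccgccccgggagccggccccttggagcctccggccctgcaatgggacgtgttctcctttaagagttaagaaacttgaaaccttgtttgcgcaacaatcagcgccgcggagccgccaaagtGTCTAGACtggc
ID2 (chr2:8681806-8682055, plus strand): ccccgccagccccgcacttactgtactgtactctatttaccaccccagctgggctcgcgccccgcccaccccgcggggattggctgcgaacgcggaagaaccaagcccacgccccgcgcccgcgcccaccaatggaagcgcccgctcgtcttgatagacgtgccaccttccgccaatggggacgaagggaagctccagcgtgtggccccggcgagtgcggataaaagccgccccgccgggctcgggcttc
The SMAD6 window held GTCTAGAC once, beginning 12 bases before the start, and the other windows held neither motif. Among 27305 genes with such a window, 0.176% held GTCTAGAC and 16.1% held GGCGCC. A match describes letters only.

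Of the BMP ligands 9 of 10 were tested, and 3 fell and 0 rose (33.3% lower, beside 3.23% of all genes; median -0.25). The 3 include BMP2, whose fall led to this choice of genes. Of the 9 tested ligands 3 lie on chromosome 20, and 2 of these were called lower (BMP2 and BMP7). The ligands outside that chromosome had a median of -0.037, with 1 called lower (BMP6) and 0 higher. BMP2 (ENSG00000125845, chromosome 20, 6767686 to 6780246) had 33.1, 34.0 and 32.3 CPM in untreated cells and 7.22, 11.5 and 4.03 CPM with tetracycline, a log2 fold change of -2.19 (SE 0.4, edgeR adjusted p 0.00529). The treated libraries were spread widely yet stayed far below the untreated ones, and the arsenite libraries had 10.0, 3.92 and 4.04 CPM. BMP6 fell from 48.0 to 52.8 CPM to 25.8 to 38.5 CPM (log2 -0.58, edgeR adjusted p 0.0485), and BMP7, the most abundant of these ligands, from 106.0 to 113.8 CPM to 87.0 to 95.2 CPM (log2 -0.25, edgeR adjusted p 0.0438). BMP6 went uncalled in 5 of the 6 reduced fits and BMP7 in all 6. GDF11 and GDF5, at log2 -0.34 and -1.07, did not pass the test.

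Among 10 tested antagonists and inhibitors 3 fell and 1 rose, beside 3.23% and 3.07% of all genes. The 3 include NOG, whose fall also led to this choice of genes. NOG (ENSG00000183691, chromosome 17, 56593699 to 56595611) fell from 13.7, 12.8 and 14.3 CPM to 3.48, 4.70 and 4.24 CPM (log2 -1.70, SE 0.217, edgeR adjusted p 0.000177), with log2 -1.46 in WT. CHRDL1 went from 1.87, 2.26 and 1.78 CPM to 0.515, 0.575 and 0.785 CPM (log2 -1.56, edgeR adjusted p 0.0128), a low level. SMAD6, which blocks SMAD activation, fell from 38.1 to 40.5 CPM to 24.9 to 32.6 CPM (log2 -0.47, edgeR adjusted p 0.0487), a call missing from 5 of the 6 reduced fits. SMURF1, a ligase that marks SMADs for degradation, rose by log2 0.42 in each line, uncalled in 4 of the reduced fits. Inside the cell, SMAD9 fell from 94.9, 95.9 and 97.5 CPM to 71.3, 57.8 and 66.4 CPM (log2 -0.56, edgeR adjusted p 0.00238), and the other 9 tested receptors and SMADs did not pass the test, SMAD1 standing at log2 0.18 and SMAD5 at 0.02. SMAD9 lies on chromosome 13 in the stretch from 30 to 40 Mb, whose genes had a median of -0.12 (WT -0.11). The part of that shift in its fall was not tested.

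All 8 tested BMP target genes had log2 fold changes below 0 (median -0.41), and ID2 alone passed the test (12.5% of the list). The number called lower was 4 with scaling by library size only, 3 without the low-count filter and 2 with DESeq2 or with only the groups compared. ID2, an inhibitor of basic helix-loop-helix factors, had 125.6, 129.7 and 128.1 CPM untreated and 64.7, 84.7 and 57.1 CPM with tetracycline (log2 -0.90, SE 0.127, edgeR adjusted p 0.000465). ID1, on chromosome 20, had 13.9 to 14.8 CPM untreated and 7.07 to 11.1 CPM with tetracycline (log2 -0.73, edgeR adjusted p 0.0534). ID3, ID4, HEY1 and MSX2 stood at log2 -0.46, -0.30, -0.33 and -0.37, with adjusted p from 0.0696 to 0.207 by edgeR. The median of the 8 genes in WT was 0.05, where ID2 also fell (log2 -0.51), and 0 of the 37 tested genes of the BMP lists were called for an interaction. BMP2, BMP7, GDF5 and ID1 lie on chromosome 20, whose genes had a median log2 fold change of -0.20, as described next.

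**Figure D3:**
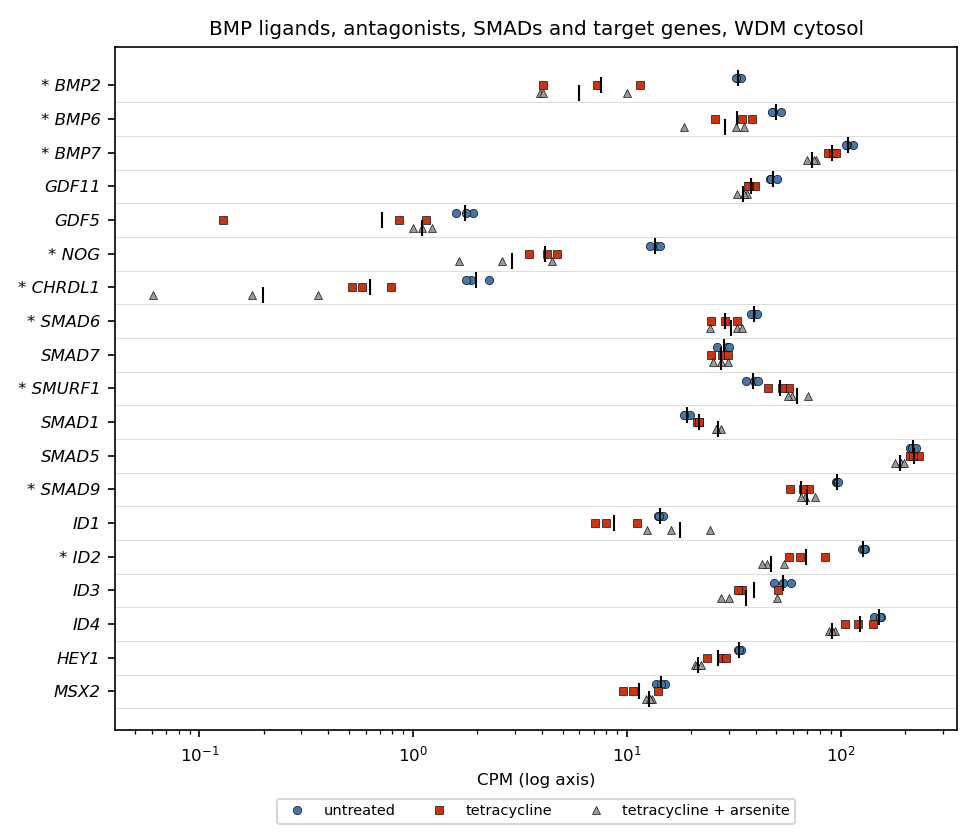
CPM (log axis) in each WDM cytosol library for BMP ligands, antagonists, SMADs and target genes, ordered by role; an asterisk marks genes called between tetracycline (squares) and untreated (circles), triangles are tetracycline with arsenite and vertical bars are means of 3 libraries. BMP2 and NOG lie farthest from their untreated circles, and ID2 moves from 125.6 to 129.7 CPM down to 57.1 to 84.7 CPM.

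Most genes of chromosome 20 were lower with tetracycline. The median log2 fold change of its 426 tested genes was -0.20, 340 of them (79.8%) had a value below 0, and 54 fell and 2 rose past the test, 13.1% of the chromosome against 6.30% of all genes. In WT the median was 0.02, and the median interaction over these genes was -0.21 although no single gene of the chromosome was called for it. Relative to the mean of the 6 libraries, the median chromosome 20 gene stood at 0.10, 0.11 and 0.09 in the untreated libraries and at -0.09, -0.05 and -0.13 in the tetracycline libraries. The groups did not overlap, and the difference of the mean library medians was -0.19 (SD 0.0087 and 0.041 over 3 untreated and 3 tetracycline libraries), for which an exact permutation test of 3 against 3 cannot give a p under 0.1. All 7 stretches of 10 Mb along the chromosome had medians between -0.28 and -0.13. The arsenite libraries stood at -0.05, -0.12 and -0.12.

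Beside BMP2, large falls on chromosome 20 were those of MROH8 (log2 -1.08), the antisense RNA NRSN2-AS1 (-0.87), the organic anion transporter SLCO4A1 (-0.70), the long noncoding RNA MHENCR (-0.64), the cysteine desulfurase NFS1 of iron-sulfur cluster synthesis (-0.63) and adenosine deaminase ADA (-0.59). SLCO4A1 went from 43.1, 37.7 and 35.3 CPM to 19.5, 25.1 and 26.2 CPM (edgeR adjusted p 0.00127), and NFS1 from 27.4, 27.3 and 26.8 CPM to 15.3, 19.9 and 17.3 CPM (edgeR adjusted p 0.0021). MROH8, SLCO4A1, NFS1 and BMP2 were called in all 6 reduced fits, while NRSN2-AS1, MHENCR and ADA went uncalled in 2 to 5 of them. In WT these genes had log2 values from -0.67 to -0.18, none of them called. FERMT1, a kindlin of cell-matrix adhesion, and the splicing factor gene SRSF6 were the 2 called rises of the chromosome. FERMT1 rose from 9.78 to 11.8 CPM up to 15.6 to 16.8 CPM (log2 0.60), and SRSF6 from 2.70 to 3.58 CPM up to 5.03 to 5.65 CPM (log2 0.77); each went uncalled in at least 2 of those fits.

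A scan of 10-Mb stretches with at least 15 tested genes found 42 of 290 with a median of at least 0.1 in size, 32 lower and 10 higher. Of these 10 lay on chromosome 2, 6 on chromosome 13, 7 on chromosome 20 and 19 elsewhere, the last including single stretches of chromosome 5 (-0.18, WT -0.22), chromosome 21 (-0.18, WT -0.21) and chromosome 11 (-0.16, WT -0.06). Runs of neighbouring shifted stretches on chromosomes 2 and 13 were picked from these values, so they are described without a test. On chromosome 2 from 140 Mb to its end, 470 genes had a median log2 fold change of -0.20, 379 of them (80.6%) lay below 0, and 79 fell and 3 rose past the test, 17.4% of the stretch. The 643 genes of chromosome 2 before 140 Mb had a median of 0.02. On chromosome 13 from 90 Mb to its end, 92 genes had a median of 0.30, 73 lay above 0, and 28 rose and 2 fell past the test (32.6% of the stretch). The 234 genes of chromosome 13 before 90 Mb had a median of -0.07, with 3 rises and 16 falls past the test. Their 10-Mb stretches from 20, 30 and 40 Mb were lowered too, with medians of -0.15, -0.12 and -0.11 (WT 0.06, -0.11 and 0.02). In each of them the tetracycline library medians lay below the untreated ones. These genes, N4BP2L1 and SMAD9 among them, are counted here with those outside the 3 regions. In the stretches from 140 and 90 Mb, the library medians did not overlap between the groups. On chromosome 2 they were 0.10 to 0.11 in untreated and -0.12 to -0.08 in tetracycline libraries, and on chromosome 13 they were -0.14 to -0.12 and 0.11 to 0.18. WT medians were -0.06 and -0.04, and the median interactions -0.18 and 0.28. Against WT libraries of the same treatment, the chromosome 13 stretch stood at -0.25 in untreated WDM cells and at 0.10 in tetracycline-treated ones, the chromosome 2 stretch at 0.13 and -0.03, and chromosome 20 as a whole at -0.09 and -0.32. Within chromosome 20, genes below 10 Mb, where BMP2 and FERMT1 lie, stood above WT in both states, at 0.31 and 0.12. Those from 10 Mb on stood at -0.16 and -0.38. For all 3 regions, a difference between the cultures used for the groups and an effect of tetracycline cannot be told apart.

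**Figure D4:**
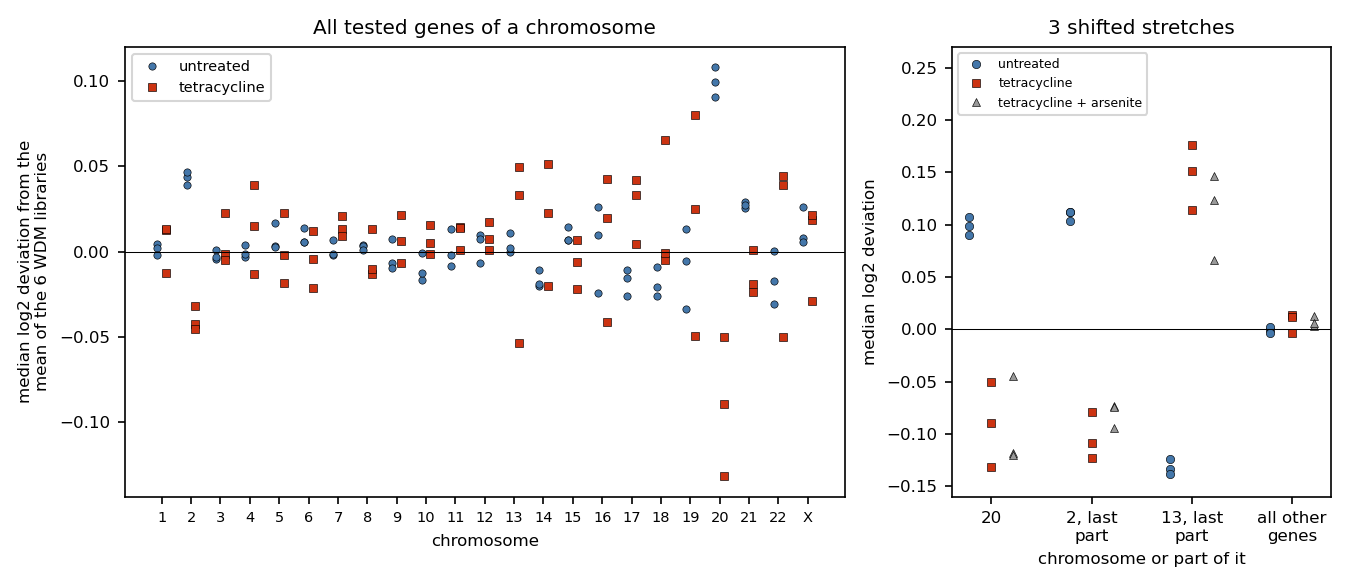
Median log2 deviation of all tested genes of a chromosome (left), and of the 3 shifted stretches and all other genes (right), in each WDM cytosol library relative to the mean of the 6 compared libraries. Circles are untreated and squares tetracycline libraries, and triangles, on the right only, tetracycline with arsenite; the last parts of chromosomes 2 and 13 begin at 140 and 90 Mb. Chromosome 20 moves from 0.09 to 0.11 down to -0.13 to -0.05, and the last part of chromosome 13 moves up.

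Named by the same criteria as the other leading genes, the largest falls in the chromosome 2 stretch were IGFBP5, a secreted binder of insulin-like growth factors (log2 -1.09), the endoplasmic reticulum prolyl isomerase FKBP7 (-0.69), the basement membrane collagen COL4A3 (-0.67), EFHD1 (-0.67), ANKZF1 (-0.65), which releases nascent chains from stalled ribosomes, and the guanine nucleotide exchange factor NGEF (-0.65). IGFBP5 had 82.4, 73.4 and 76.5 CPM untreated and 42.6, 28.5 and 38.4 CPM with tetracycline, and fell by log2 1.00 in WT too. In the chromosome 13 stretch the lysosomal membrane protein LAMP1 rose from 104, 89.4 and 90.3 CPM to 137, 191 and 161 CPM (log2 0.78, edgeR adjusted p 0.0114). ADPRHL1 (0.71), the DNA ligase gene LIG4 (0.68), the transcription factor ZIC2 (0.63), the chaperone DNAJC3 (0.61) and MCF2L (0.61) followed. LIG4 went from 28.1, 30.7 and 30.1 CPM to 44.5, 49.0 and 48.5 CPM, with log2 0.54 in WT. Calls held in all reduced fits for FKBP7 and COL4A3 in the first stretch and for LIG4, ZIC2, DNAJC3 and MCF2L in the second. With chromosome 20 and both stretches set aside, 882 of 15682 genes remained called (478 higher, 404 lower), and 797 when these genes were removed before the fit.

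In these cytosol libraries, transcripts of the mitochondrial genome were lower with tetracycline. Of its 13 mRNAs, which encode subunits of the respiratory chain and of ATP synthase, 6 fell and 0 rose (46.2% lower, beside 3.23% of all genes), and all 13 had log2 fold changes below 0 (range -1.02 to -0.23, median -0.58). MT-ND4, a subunit of complex I, had 43.7, 48.7 and 63.0 CPM untreated and 22.5, 23.7 and 32.5 CPM with tetracycline (log2 -0.96, SE 0.143, edgeR adjusted p 0.000771). MT-CYB of complex III fell from 24.8 to 31.5 CPM to 13.9 to 16.0 CPM (log2 -0.87), and the abundant MT-CO1 of complex IV from 940.4 to 1133.3 CPM to 629.5 to 709.1 CPM (log2 -0.58, edgeR adjusted p 0.0108). MT-ND4L (-1.02), MT-ND5 (-0.78) and MT-ATP6 (-0.73) also fell, whereas MT-CO2 and MT-CO3 stood at -0.23 each and did not pass the test. Counts of the whole mitochondrial chromosome made up 0.166% to 0.197% of untreated and 0.12% to 0.132% of tetracycline libraries, ranges that did not overlap. A smaller share of mitochondrial RNA in the cytosol fraction and a lower level in the cells cannot be told apart here. MT-ND4 and MT-CYB were called in all 6 reduced fits and the other 4 were not, and the groups overlapped for MT-ND5. In WT 2 of the 13 mRNAs fell and the median was -0.37, and no interaction was called.

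Among nuclear genes for the same organelle, 1.59% of respiratory chain subunits and 1.43% of mitochondrial ribosome genes were called, beside 6.30% of all genes. Of 63 tested nuclear subunits of the respiratory chain 1 fell (NDUFA10, in the chromosome 2 stretch, log2 -0.28) and 0 rose, with a median of -0.03. Of 70 tested mitochondrial ribosome genes 1 rose and 0 fell (median -0.0040). The riser was MRPL1, at 27.7 to 30.1 CPM untreated and 41.0 to 46.8 CPM with tetracycline (log2 0.59, edgeR adjusted p 0.00231), with log2 0.72 in WT. TFAM, which packages and transcribes mitochondrial DNA, rose by log2 0.33, and the fission adaptor MFF, in the chromosome 2 stretch, fell by 0.34; TFAM went uncalled in all 6 reduced fits and MFF in 5. In the integrated stress response, the eIF2-alpha and ATF4 pathway that mitochondrial damage can switch on, 2 of 35 tested genes rose and 0 fell (5.71% called, near the share of all genes, median 0.08). These were the cystine transporter SLC7A11 (0.31, also a NRF2 target, uncalled in 5 of the 6 reduced fits) and the hormone FGF21, from 0.803 to 1.11 CPM up to 1.63 to 3.14 CPM (log2 1.34, edgeR adjusted p 0.00812). ATF4 stood at 0.08, TRIB3 at 0.04 and DDIT3 at -0.22. Of 20 genes of the unfolded-protein response of the endoplasmic reticulum 3 (15%) rose, and 5 without the low-count filter. They were CALR (0.39), PDIA4 (0.37) and DNAJC3 (0.61, in the chromosome 13 stretch), and the list's median was 0.20 in WDM and 0.16 in WT.

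Lists of genes for RNA-binding proteins differed in their share of calls, beside 6.30% of all genes. None of 28 tested stress granule protein genes was called (median 0.02; G3BP1 at log2 0.10), and none of 32 processing-body and mRNA decay genes (median 0.05), of 9 prion-like RNA-binding protein genes (0.04) or of 80 ribosomal protein genes (-0.03) was called by edgeR. In these 4 lists 3, 5, 2 and 1 genes had an unadjusted p under 0.05, and DESeq2 called 0, 1, 1 and 0. Among 19 genes for proteins that bind AU-rich or U-rich elements 3 rose and 0 fell (15.8% called, median 0.18); without the low-count filter 1 rose. PTBP2, the neuronal polypyrimidine tract binder, rose from 89.9, 94.6 and 94.7 CPM to 129.9 to 150.9 CPM (log2 0.59, SE 0.0759, edgeR adjusted p 0.000177). ELAVL2 (0.27) and MBNL2 (0.36, in the chromosome 13 stretch) rose less, and each went uncalled in 5 of the 6 reduced fits. Among 18 SR splicing factors and CLK kinases 4 rose and 1 fell (27.8% called in WDM and in WT). SRSF8 rose from 28.9 to 31.4 CPM up to 45 to 50.4 CPM (log2 0.65, edgeR adjusted p 0.00139), SRSF5 by 0.56 and SRSF9 by 0.33 beside SRSF6. CLK2, a kinase that phosphorylates SR proteins, fell from 45.4, 49.4 and 44.2 CPM to 28.5, 34.9 and 29.5 CPM (log2 -0.58, edgeR adjusted p 0.00167), and stood above its untreated level with arsenite, at 52.6 to 61.3 CPM.

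Of 47 tested translation initiation factor genes 1 was called (2.13%, beside 6.30% of all genes). EIF4A2, an RNA helicase of the cap-binding complex that also acts in microRNA repression (ENSG00000156976, chromosome 3, 186783205 to 186789897), had 369.7, 366.9 and 393.1 CPM in untreated cells and 150.5, 196.0 and 162.4 CPM with tetracycline. The log2 fold change was -1.15 (SE 0.109, edgeR adjusted p 4.82e-06), the call held in all 6 reduced fits, and WT showed log2 -0.82. With arsenite EIF4A2 had 251.8, 276.3 and 299.6 CPM, between the untreated and the tetracycline ranges. TIAL1, CLK2 and EIF4A2 thus shared an order in WDM cells, with the tetracycline libraries below both the untreated and the arsenite libraries, while ANOS1, NOG, BMP2 and IFI16 stayed low in the arsenite libraries.

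**Figure D5:**
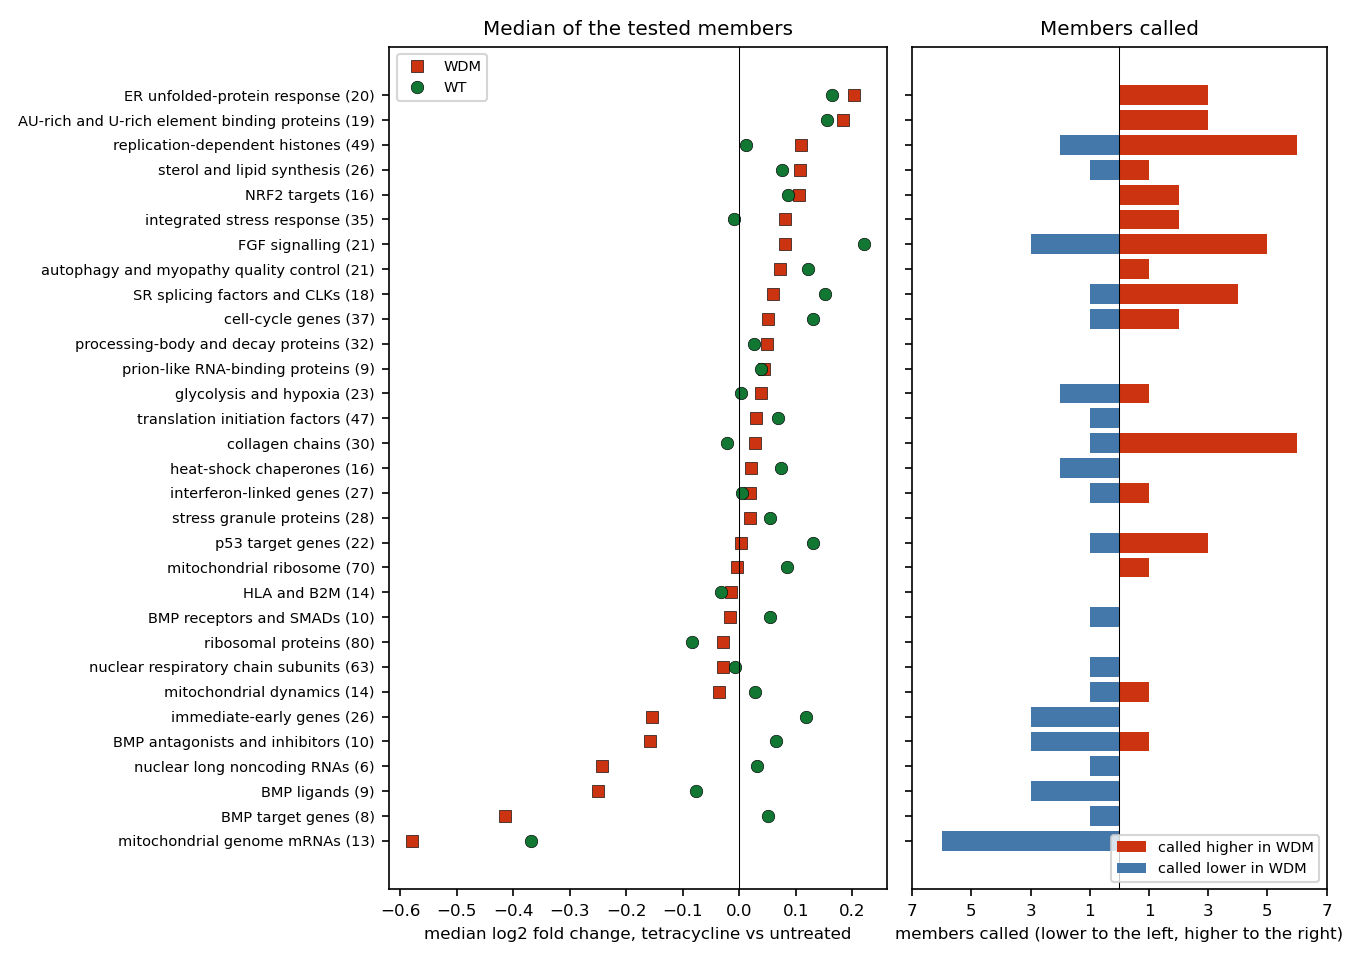
Left, median log2 fold change with tetracycline in WDM (squares) and WT (circles) for each gene list except the TIA1 family and the cell type markers, with the number of members tested in parentheses; right, members called higher (to the right) and lower (to the left) in WDM. Of the lists plotted, the mitochondrial mRNAs have the lowest WDM median, -0.58, and the BMP target genes the next, -0.41.

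Replication-dependent histone genes, whose mRNAs end in a stem-loop in place of a poly(A) tail and peak in S phase, gave 6 rises and 2 falls among 49 tested (12.2% and 4.08%, beside 3.07% and 3.23% of all genes; median 0.11). H2AC16 rose from 17.9, 17.4 and 16.3 CPM to 27.2, 35.7 and 31.9 CPM (log2 0.88, edgeR adjusted p 0.000177), H2AC8 by 0.89 and H2AC15 by 0.69, and all 3 were called in every reduced fit. H2AC12 (0.44), H1-3 (0.50) and H2BC8 (1.18) went uncalled in 4 or 5 of these fits, including that without tetracycline replicate 2, and replicate 2 was the highest treated library for all 6 risers. Histone transcripts are short, and in replicate 2 short transcripts were higher in general (rank correlation with length -0.24), whose part in these rises was not tested. H4C15 fell by 0.81 and H4C9 by 1.91 on the log2 scale, the latter from at most 1.42 CPM. Reads of these near-identical genes can be assigned to more than 1 copy. Of 37 cell-cycle genes the S-phase licensing factor CDC6 (0.58) and cyclin CCNE2 (0.52) rose and the mitotic kinase AURKA, on chromosome 20, fell (-0.39). Of 22 p53 targets MDM2 (0.31), the decoy receptor TNFRSF10D (0.80) and TP53I3 (0.80) rose and RRM2B (-0.31) fell, while CDKN1A stood at 0.34 (edgeR adjusted p 0.0503). Called members made up 8.11% of the cell-cycle genes and 18.2% of the p53 targets, beside 6.30% of all genes.

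Collagen genes, 30 of 44 tested, gave 6 rises and 1 fall (20.0% and 3.33%, beside 3.07% and 3.23% of all genes; median 0.03). COL2A1, the main chain of cartilage collagen, rose from 175.9, 169.8 and 174.1 CPM to 276.9, 280.9 and 288.4 CPM (log2 0.70, SE 0.0825, edgeR adjusted p 7.63e-05), with the replicates of each group close together. COL19A1 (0.76), COL12A1 (1.04) and COL9A2 (1.30) rose as well, as did the basement membrane pair COL4A1 (0.31) and COL4A2 (0.37), which lie in the chromosome 13 stretch. COL4A3, in the chromosome 2 stretch, fell. In WT 1 collagen gene rose and 2 fell. Of the fibroblast markers LUM rose by log2 1.09 (1.97 to 2.08 CPM untreated, 3.35 to 5.27 CPM with tetracycline), and the part of the summed fibroblast markers given above in these rises was not tested. KRT19 among the epithelial markers rose (0.54) and NEFL among the neural markers fell (-0.43), each uncalled in 5 of the 6 reduced fits. The 4 tested neural markers had a median of 0.06 and reached 0.42.

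Calls in the stress and signalling lists made up 7.41% of the interferon-linked genes, 12.5% each of the heat-shock chaperones and NRF2 targets and 11.5% of the immediate-early genes, beside 6.30% of all genes. Of 27 tested interferon-linked genes SAMD9, an antiviral factor, rose from 8.60, 8.47 and 7.90 CPM to 17.8, 15.7 and 14.6 CPM (log2 0.93, edgeR adjusted p 0.00223) and IFI16 fell; the median was 0.02, and 0 of 14 HLA genes and B2M were called by edgeR or DESeq2 (1 with an unadjusted p under 0.05). Among 16 heat-shock chaperones HSPA1B fell from 663.9 to 696.2 CPM to 422.4 to 466.2 CPM (log2 -0.63, edgeR adjusted p 0.00137) and its near-identical copy HSPA1A by 0.54, with -0.69 and -0.75 in WT. Of 16 NRF2 targets HMOX1, heme oxygenase, rose from 8.53, 7.16 and 5.24 CPM to 11.7, 13.0 and 13.2 CPM (log2 0.86, edgeR adjusted p 0.00535), and SLC7A11 was the other. Of 26 immediate-early genes MYC (-0.56), KLF10 (-0.54) and FOSL1 (-1.23, from at most 2.41 CPM) fell and 0 rose. MYC had 257.8, 260.5 and 247.8 CPM untreated and 166.9, 179.2 and 172.0 CPM with tetracycline (edgeR adjusted p 0.00167), and log2 -0.60 in WT.

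Called members made up 7.69% of the sterol and lipid list, 13.0% of glycolysis and hypoxia and 4.76% of autophagy and quality control, beside 6.30% of all genes. Of 26 sterol and lipid synthesis genes the squalene epoxidase SQLE fell from 244.9, 245.7 and 247.0 CPM to 168.7, 188.4 and 193.4 CPM (log2 -0.42, edgeR adjusted p 0.00337), and its regulator SREBF1 rose by 0.38. Of 23 glycolysis and hypoxia genes the glucose transporter SLC2A1 rose (0.43) and NDRG1 (-0.44) and PDK1 (-0.49, in the chromosome 2 stretch) fell. Of 21 genes of autophagy and myopathy quality control WIPI2, which recruits the lipidation machinery to forming autophagosomes, rose by 0.31. A list of long noncoding RNAs, 6 of them tested, served as a check of the cytosol fraction. Its median log2 fold change was -0.24 in WDM and 0.03 in WT. Its sum, scaled by raw totals, was 1231 to 1298 CPM untreated and 828 to 1156 CPM with tetracycline. NORAD, a mainly cytoplasmic RNA that binds Pumilio proteins and is encoded on chromosome 20, was the only call (log2 -0.34, 472.8 to 483.6 CPM untreated and 356.1 to 418.2 CPM with tetracycline). NEAT1 and MALAT1 stood at -0.34 and -0.31 with overlapping groups. WIPI2, SREBF1, RRM2B and FOSL1 went uncalled in all 6 reduced fits. Calls missing from at least 1 reduced fit were also those of FGF2, FGFR1, FGF9, FGFR3, CHRDL1, FGF21, CALR, PDIA4, NDUFA10, HSPA1A, SRSF5, SRSF9, CDC6, CCNE2, AURKA, MDM2, TP53I3, COL4A1, COL4A2, SLC2A1, PDK1, NDRG1, NORAD, H4C15 and H4C9.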

How the data were processed

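The authors deposited unnormalized gene-level read counts in 1 table, with a column for each library. Per the submitters' processing notes, Trimmomatic, STAR, Picard, featureCounts and GRCh38 were used; versions, annotation release, strand setting and read filters are not given in the sources used here. Per the labels, libraries were stranded total RNA after rRNA removal. Groups and replicate numbers come from the sample titles. Gene coordinates are those of the deposited table. Of 60664 identifiers, 60463 were found in GENCODE 44 on the same chromosome, from which gene types and overlaps were taken.

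The 18 cytosol libraries (7971585 to 18884843 counts) were fitted together with edgeR 4.0.16 in R 4.3.3: filterByExpr (minimum count 10, minimum total 15), TMM factors, group means, robust quasi-likelihood F-test, and Benjamini-Hochberg adjustment over the 16670 genes tested. Calls required an adjusted p below 0.05. The script was tested on simulated data. CPM are counts scaled to a common total by the TMM-adjusted library size (by the raw total for marker sums), and library medians use log2 CPM with a prior count of 2. Floors cover counting error only. Regular-expression lists were limited to protein-coding genes. Tables and plots used Python 3.11.15, pandas 2.3.3, scipy 1.17.1 and matplotlib 3.10.9.

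Named genes are TIAL1, list members, and, among called genes with a symbol, 5 CPM or more on average in whichever group was higher, and no overlap between groups, the 12 largest rises and 12 largest falls outside chromosome 20 and up to 8 falls and 4 rises on it; for the interaction, the 5 smallest p. Some genes that meet these rules are not reported here. The comparison, the lists and the rule were chosen with earlier results of these data known, and the stretches of chromosomes 2 and 13, with 6 genes named in each, after their values were seen. Alternatives tried were no count filter, RLE factors, scaling by library size only, the replicate number as a block, only the groups compared, each library left out, chromosome 20 removed, and DESeq2 1.42.0.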

Additional observations from a re-analysis of the deposited data

Results flagged for a closer look

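The change with tetracycline differed between the lines for 3 genes by the edgeR interaction test, which is why they are listed here. ANOS1 differed by -1.57 on the log2 scale, APOLD1 by 0.91 and SSPN by 1.82. Of 12 fits, each without 1 library of either line, ANOS1 was called in 12, APOLD1 in 6 and SSPN in 1.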

How the results depend on the processing

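DESeq2, RLE factors, scaling by library size only, testing without a low-count filter, fitting only the groups compared and, outside chromosome 20, removal of that chromosome's genes before the fit each kept the counts of called genes within 1.5 times (1046 to 1161 in all, 966 to 1101 outside chromosome 20). Leaving out 1 library gave 422 to 771 genes (191 to 372 higher, 231 to 399 lower), and outside chromosome 20 395 to 715 (190 to 371 higher, 205 to 344 lower), with fewer samples in the fit. The chromosome 20 median ranged from -0.22 with scaling by library size only to -0.16 without the low-count filter, and from -0.21 to -0.17 over the fits without 1 library. The interaction called 14 genes without the filter, 10 with DESeq2 and 1 to 4 when 1 library was left out. With the replicate number as a block, 1435 genes were called in WDM (1359 outside chromosome 20) and 6 for the interaction. Same-numbered libraries did not deviate together (correlations -0.04, -0.04 and -0.05), so the replicate numbers were not taken as a pairing. Removing chromosome 20 and the stretches of chromosomes 2 and 13 before the fit, an alternative chosen after seeing the data, called 797 genes against 882. For the 48 leading genes the direction held in every alternative; single-gene calls held in 569 cases, were lost in 69 and gained in 2. Counts of called list members stayed within 1.5 times in 595 cases and moved further in 173, most of them with a library left out. The cause of these changes was not tested. Depth limits the low genes most, since 3 counts equal 0.159 to 0.376 CPM in the 6 libraries.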

Other observations

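Several abundant genes of the lists had no count in any of the 6 WDM libraries compared, among them EIF4A1, HNRNPA1, ATXN2L, RPS10 and SDHA, so the lists do not describe them. Of 86 ribosomal protein genes 3, of 84 nuclear respiratory chain genes 12, and of 78 mitochondrial ribosome genes 7 were at 0 in this way. TIA1 itself had 1 count in the 6 libraries.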
